A study of Mus musculus with 4 samples.

Results

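The keratins described here are 9 genes of basal and luminal mammary epithelium, chosen by symbol from the 27998 genes listed for every cell: Krt5, Krt14, Krt15 and Krt17, which are textbook keratins of the basal layer, Krt7, Krt8, Krt18 and Krt19, which are textbook keratins of simple and luminal epithelium, and Krt6a, a keratin of stratified and hyperproliferative epithelium. The cells were total mammary epithelium of FVB/NJ mice, sorted as lineage-negative and CD24-positive and captured on a droplet platform (10x Genomics Chromium) that counts the 3′ ends of mRNA molecules. The puberty group came from mice 5 weeks old, and the estrus and diestrus groups from mice 10 weeks old in the estrus or the diestrus phase of the ovarian cycle. Cells from 2 mice were pooled for each adult phase, and cells of individual mice cannot be separated. Each stage was 1 library, so stage, capture and sequencing run cannot be told apart, and no test between stages was possible.

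Keratins are the intermediate filaments of epithelial cells. A filament is built from pairs of 1 acidic (type I) and 1 basic (type II) chain, so a cell that makes filaments expresses members of both types, and each epithelial layer has its own usual pairs. In the mammary duct the outer basal, or myoepithelial, layer is known for the pair Krt5 and Krt14, and the inner luminal layer for Krt8 paired with Krt18 or Krt19. Of the members, 5 are type I (Krt14, Krt15, Krt17, Krt18 and Krt19) and 4 are type II (Krt5, Krt6a, Krt7 and Krt8).

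The members lie in the mouse keratin clusters (GENCODE M21 annotation, GRCm38). On chromosome 11 and on the minus strand are Krt15 (ENSMUSG00000054146, chr11:100131758-100135928), Krt19 (ENSMUSG00000020911, chr11:100140810-100148665), Krt14 (ENSMUSG00000045545, chr11:100203162-100207548) and Krt17 (ENSMUSG00000035557, chr11:100256217-100261029). On chromosome 15 are Krt7 (ENSMUSG00000023039, chr15:101411043-101430313, plus strand), Krt6a (ENSMUSG00000058354, chr15:101689910-101694307, minus strand), Krt5 (ENSMUSG00000061527, chr15:101707070-101712898, minus strand) and Krt8 (ENSMUSG00000049382, chr15:101996698-102004482, minus strand). Krt18 (ENSMUSG00000023043, chr15:102028180-102032027, plus strand) is a type I gene that nevertheless lies in the type II cluster, 23697 bases from Krt8. Krt14 and Krt17 shared 11.1% of the 31-base words in the last 400 bases of their longest coding transcripts with each other, Krt16 or Krt42, and Krt7 shared 19.7% of them with genes that are not keratins, so part of their 3′ reads may not have been assignable to 1 gene.

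The RefSeq table (GRCm38.p6) held the sequences before the start of 5 members. Its start of Krt14 lay 1518 bases, and that of Krt7 1360 bases, from the GENCODE start, so those windows are not shown. The 250 bases before the start of Krt8 and Krt18 are shown because these neighbouring genes had the most alike levels of any luminal pair over cell clusters, and those of Krt5 as the basal gene of the same chromosome. Capitals mark matches to the E-box letters CACCTG, the TATA-box letters TATAA, the AP-1 letters TGANTCA, the GC-box letters GGGCGG or the box known as CCAAT, searched on both strands and chosen with the sequences in view. The windows run 5′ to 3′ on the strand of the gene.
Krt8: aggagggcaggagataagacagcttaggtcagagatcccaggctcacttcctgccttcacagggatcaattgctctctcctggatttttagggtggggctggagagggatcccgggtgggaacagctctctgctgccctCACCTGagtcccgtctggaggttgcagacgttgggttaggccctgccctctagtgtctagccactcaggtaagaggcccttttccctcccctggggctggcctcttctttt
Krt18: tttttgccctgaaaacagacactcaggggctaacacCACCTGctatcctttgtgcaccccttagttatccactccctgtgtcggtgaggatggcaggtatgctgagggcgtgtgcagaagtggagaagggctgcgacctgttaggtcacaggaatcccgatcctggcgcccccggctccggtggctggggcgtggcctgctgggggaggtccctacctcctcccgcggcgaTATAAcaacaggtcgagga
Krt5: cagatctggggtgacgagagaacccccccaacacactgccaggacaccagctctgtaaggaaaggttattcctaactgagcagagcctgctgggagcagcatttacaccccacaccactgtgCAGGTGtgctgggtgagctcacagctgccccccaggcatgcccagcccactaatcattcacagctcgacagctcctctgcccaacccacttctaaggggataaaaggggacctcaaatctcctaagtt
These windows are chr15:102004343-102004592 (minus strand) for Krt8, chr15:102027966-102028215 (plus strand) for Krt18 and chr15:101712906-101713155 (minus strand) for Krt5. The RefSeq start lay 140 bases inside the GENCODE gene of Krt8, 36 inside that of Krt18 and 7 before that of Krt5. The marked CACCTG of Krt8 and TATAA of Krt18, 111 and 19 bases before the RefSeq start, therefore lie within the GENCODE genes. All 3 windows held CACCTG, on the printed strand in Krt8 and Krt18 and on the other strand in Krt5, and 17.2% of 32851 windows of the same length did. TATAA was found in Krt18 alone of the 3, and in 22.8% of all windows. A match is a run of letters and not a bound site.

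Across the 3 tables the depth was 10962454 to 25365324 counts over 2439 to 5428 cell barcodes, with medians of 3236 to 4103 counts per cell. Cells were assigned to classes without any keratin, by clustering each library without keratin genes and naming the clusters from markers such as Acta2 and Trp63 (basal), Elf5, Kit and Csn3 (luminal progenitor, LP) and Prlr, Esr1 and Pgr (mature luminal, ML). In the order puberty, estrus, diestrus, which is kept wherever 3 values follow each other, the basal-like class held 1160, 1290 and 1068 cells, the LP-like class 1796, 484 and 587, and the ML-like class 2180, 757 and 687. Median depth per cell was lowest in the basal-like class, at 2929.5, 2550.5 and 3410.5 counts, against 3212 to 4661 in the luminal classes. Clusters with markers of more than 1 lineage stayed unnamed and entered no class. The libraries of different stages shared 13 to 24 cell barcodes. A second deposited table of puberty shared 5387 barcodes with the first, 99.2% of it, and did not enter the values below.

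Krt5, Krt14, Krt15 and Krt17 were each far higher in basal-like than in luminal cells in all 3 libraries, and Krt7, Krt8, Krt18 and Krt19 were each lower in basal-like cells. Levels are counts per 1000000 counts of the class (CPM), and fold changes come from edgeR's quasi-likelihood test on 9 sums, 1 for each class and library, with the library as a block. A call is an adjusted p under 0.05 over the 11221 genes tested. Of the 9 members, 4 were higher in basal-like cells and 5 were lower, where 27.8% of all genes tested were higher and 24.9% lower. The lineages are broadly different, so a call alone says little and the size of the difference is given for each member.

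Krt14, the main acidic keratin of basal cells, was at 4452 CPM in puberty, 7174 in estrus and 3673 in diestrus in the basal-like class. It was at 37.9, 82.6 and 307 CPM in the LP-like class and at 22.5, 30.7 and 53.2 CPM in the ML-like class. The groups did not overlap, and the log2 fold change of basal-like over luminal cells was 6.40 (SE 0.41, n = 3 libraries, edgeR adjusted p = 5.53e-07). Its partner Krt5 was at 386, 759 and 495 CPM in basal-like cells and at most 41.9 CPM in any luminal sum, with a log2 fold change of 6.20 (SE 0.41, edgeR adjusted p = 6.72e-07). Krt5 and Krt14 thus had like fold changes, and both were highest in basal-like cells of the estrus library.

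Krt17, a type I keratin of basal and stress-activated epithelium, was at 3534, 4621 and 3430 CPM in basal-like cells and between 17.3 and 89.8 CPM in the luminal sums. Its log2 fold change of 6.52 (SE 0.20, edgeR adjusted p = 7.23e-09) had the smallest error of the 4 basal keratins. Krt15, a type I keratin known from basal and stem compartments of other epithelia, was at 728, 341 and 1146 CPM in basal-like cells, the most variable of the 4 over libraries. Its log2 fold change was 4.99 (SE 0.45, edgeR adjusted p = 7.24e-06). It was also the basal keratin found in the fewest basal-like cells, with a count in 41.6%, 26.2% and 49.3% of them, against 86.6%, 97.7% and 95.5% for Krt14.

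**Figure D1:**
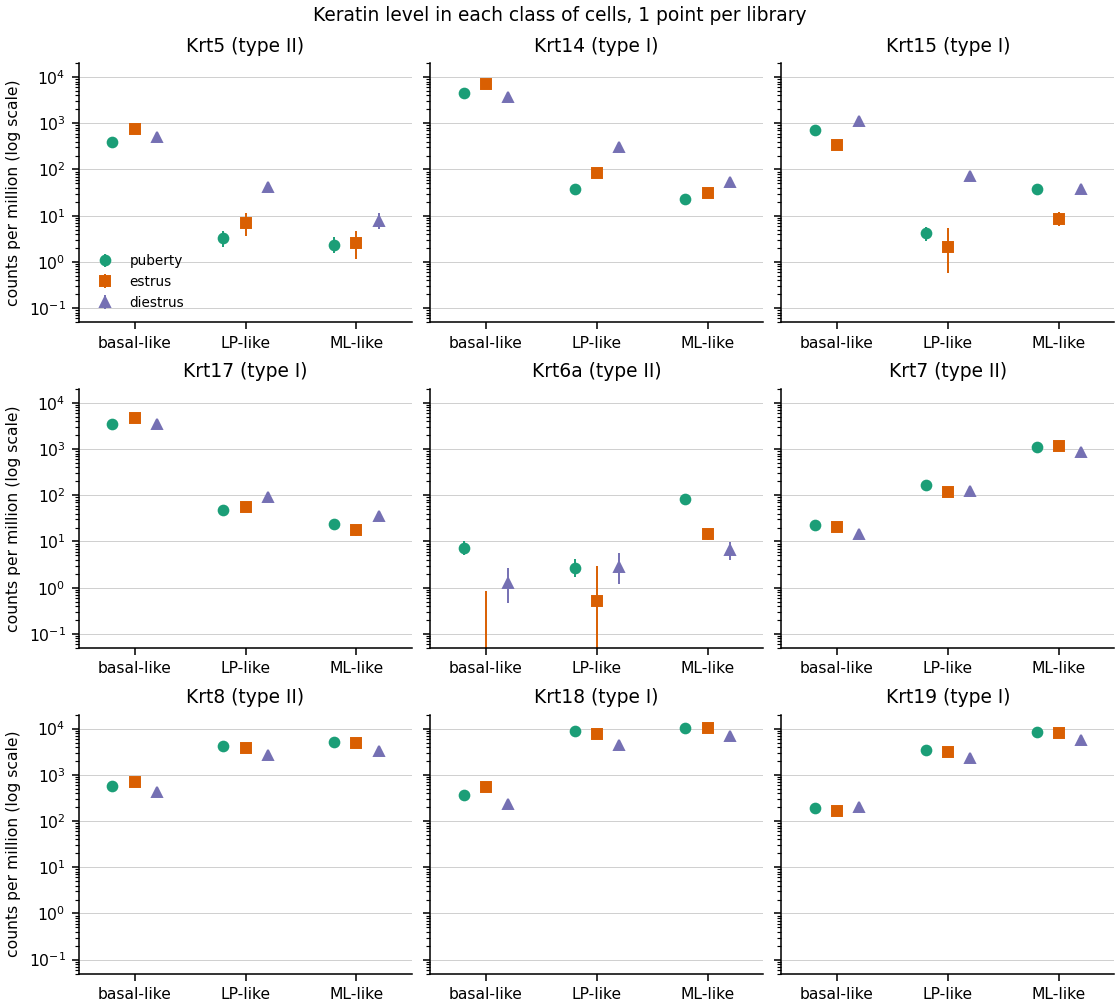
Level of each keratin in CPM on a log scale in basal-like, LP-like and ML-like cells, with 1 point for each library and bars for the 95% counting interval. Krt5, Krt14, Krt15 and Krt17 sit highest in the basal-like class, Krt8, Krt18 and Krt19 in both luminal classes, and Krt7 and Krt6a in the ML-like class; Krt6a had no count in basal-like cells of estrus and has only the upper end of its interval there.

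Krt8, the main basic keratin of luminal cells, was at 4189, 3831 and 2744 CPM in LP-like cells and at 5187, 4950 and 3239 CPM in ML-like cells. Basal-like cells held 568, 695 and 429 CPM. The log2 fold change of basal-like over luminal cells was -2.92 (SE 0.12, edgeR adjusted p = 3.44e-08), the smallest of the 4 luminal keratins. Krt18, its type I partner, was at 8757, 7772 and 4414 CPM in LP-like and 10497, 10110 and 6989 CPM in ML-like cells, against 368, 557 and 235 CPM in basal-like cells (log2 fold change -4.51, SE 0.19, edgeR adjusted p = 3.69e-08). Krt8 therefore fell less across the lineage border than Krt18, although both chains pair in the same filament.

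Krt19, a type I keratin of luminal cells, was at 3524, 3121 and 2279 CPM in LP-like and 8250, 8012 and 5628 CPM in ML-like cells. In basal-like cells it was at 193, 163 and 204 CPM (log2 fold change -4.71, SE 0.19, edgeR adjusted p = 2.79e-08). Krt7, a type II keratin of ductal epithelium, was at 164, 117 and 121 CPM in LP-like and 1125, 1174 and 844 CPM in ML-like cells, with 22.2, 20.1 and 14.5 CPM in basal-like cells (log2 fold change -4.42, SE 0.14, edgeR adjusted p = 7.23e-09).

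Within the luminal lineage, Krt7 and Krt19 separated the classes and Krt8 and Krt18 did not. Of the 9 members, 3 were higher in LP-like than in ML-like cells and 3 were lower, where 20.1% of genes tested were higher and 20.2% lower. Krt7 was lower in LP-like cells by a log2 fold change of -2.81 (SE 0.13, edgeR adjusted p = 1.51e-07) and Krt19 by -1.14 (SE 0.17, edgeR adjusted p = 4.01e-04), in 3 of 3 libraries each and with no overlap. The difference was -0.16 (SE 0.12, edgeR adjusted p = 0.326) for Krt8 and -0.29 (SE 0.17, edgeR adjusted p = 0.218) for Krt18, neither past the threshold, and both were lower in LP-like cells in 3 of 3 libraries.

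The members called higher in LP-like cells were basal keratins at low levels. Krt14 differed by 1.85 (SE 0.47, edgeR adjusted p = 0.00982), Krt5 by 1.86 (SE 0.63, edgeR adjusted p = 0.0376) and Krt17 by 1.44 (SE 0.24, edgeR adjusted p = 7.43e-04) on the log2 scale, each higher in 3 of 3 libraries, and the ranges of the classes overlapped for Krt14 and Krt5. The Krt5 call was lost without the estrus library (1.89, edgeR adjusted p = 0.0704) and with DESeq2 (adjusted p = 0.0613). When luminal cells with counts of 3 or more of the 12 basal markers were left out, Krt17 no longer differed past the threshold (0.12, edgeR adjusted p = 0.791), while Krt14 (1.60, edgeR adjusted p = 0.0220) and Krt5 (1.89, edgeR adjusted p = 0.0298) did. With cells assigned 1 by 1 from marker scores in place of clusters, none of the 3 passed the threshold (edgeR adjusted p = 0.0709 for Krt14, 0.0968 for Krt5 and 0.493 for Krt17).

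Krt15 had another pattern than the other basal keratins in luminal cells. It was at 38.4, 8.65 and 36.9 CPM in ML-like cells, and at 4.13, 2.09 and 73.0 CPM in LP-like cells, so that it was higher in ML-like cells in 2 of 3 libraries (log2 fold change of LP-like over ML-like cells -0.66, SE 0.64, edgeR adjusted p = 0.444). Counts came from 6.88%, 2.77% and 9.46% of ML-like cells. Per count of Krt14 there were 1.71, 0.282 and 0.694 counts of Krt15 in ML-like cells and 0.163, 0.0476 and 0.312 in basal-like cells, and in each library the 95% counting intervals of these ratios did not overlap. Without cells carrying 3 or more basal markers Krt15 stayed at 35.9, 7.62 and 32.9 CPM in ML-like cells and was at 4.200, 2.16 and 12.6 CPM in LP-like cells, and the difference between the classes then passed the threshold (log2 fold change -2.09, edgeR adjusted p = 2.00e-04). Without the diestrus library it also did (-2.71, edgeR adjusted p = 5.09e-04), and without the puberty library its direction turned (0.55, edgeR adjusted p = 0.421).

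Among the 3 classes, Krt6a, a type II keratin best known from stratified epithelium and wounds, was found mainly in ML-like cells of puberty. It was at 84.1 CPM there, 14.2 CPM in estrus and 6.40 CPM in diestrus, with a count in 19.7%, 4.49% and 2.33% of ML-like cells. Thinned to 2000 counts per cell, which removes differences in depth, the shares were 10.8%, 1.31% and 1.45%. Unnamed clusters of puberty held Krt6a too. It was at 54.5 CPM and in 16.2% of the 228 cells with LP and ML markers (8.85% thinned). In the 64 cells with basal and luminal markers it was at 25.3 CPM and in 14.1% (3.13% thinned). In LP-like cells it was at 2.71, 0.523 and 2.80 CPM, and in basal-like cells at 7.31 CPM in puberty and 1.24 CPM in diestrus, with 0 counts in estrus (3 counts there would be 0.685 CPM, and the upper end of the 95% interval drawn in the plot of levels is 0.843 CPM). It was lower in LP-like than in ML-like cells (log2 fold change -4.02, SE 0.62, edgeR adjusted p = 4.87e-04), which without the puberty library missed the threshold (-2.34, edgeR adjusted p = 0.0636). Its call as lower in basal-like than in luminal cells (-1.63, SE 0.59, edgeR adjusted p = 0.0377) missed the threshold without the estrus library (-1.33, edgeR adjusted p = 0.0996), with cells assigned 1 by 1 from marker scores (-1.12, edgeR adjusted p = 0.0723) and without cells carrying 3 or more markers of the other lineage (-1.36, edgeR adjusted p = 0.119), and basal-like and LP-like levels overlapped.

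In puberty 494 cells held 1107 counts of Krt6a, and the 10 cells with the most had 9.94% of them, so the signal was spread over many cells. In estrus 38 cells held 56 counts and in diestrus 25 cells held 39. Among the 5 ML-like clusters of puberty, Krt6a was highest, at 149 CPM, in the cluster led by Sprr1a, Upk3a and S100a14, genes of cornifying and urothelial-type epithelium. This cluster also had the highest Krt7 (1493 CPM), Krt8 (7596 CPM), Krt18 (13009 CPM) and Krt19 (11991 CPM) of the ML-like clusters of puberty. Clusters were built from the other genes of the same cells, so these orders are descriptions.

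The balance of type I and type II transcripts differed between the lineages. In basal-like cells there were 9.43, 8.72 and 9.24 type I counts of the members for each type II count in puberty, estrus and diestrus. The ratio was 2.84, 2.79 and 2.46 in LP-like cells and 2.94, 2.96 and 3.11 in ML-like cells. The ratio was thus higher in basal-like than in luminal cells in every library, and the 95% counting intervals lay between 8.50 and 9.74 in basal-like and between 2.40 and 3.17 in luminal cells. The 9 members made up 0.963% to 1.43% of all counts in basal-like cells, 1.01% to 1.67% in LP-like and 1.68% to 2.52% in ML-like cells. Counts are per captured 3′ end and were not divided by length, and type I and type II keratins outside the 9 were not in the ratio.

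Over the 33 clusters of the 3 libraries, levels of the basal keratins followed one another and those of the luminal keratins did too. The Pearson correlation of log2(CPM + 10), centred within each library, was 0.98 for Krt5 with Krt14 and for Krt14 with Krt17, 0.97 for Krt8 with Krt18, 0.95 for Krt18 with Krt19 and -0.86 for Krt14 with Krt18. Krt15 followed Krt14 less closely (0.84), and Krt6a followed no other member beyond 0.62 (Krt7). Clusters of a library share its depth and its free RNA, so these values describe the clusters and carry no test.

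Among 5209 other genes, the 2 most like each basal keratin were Cxcl14, a secreted chemokine, and Cnn1, a smooth muscle calponin, for Krt5 (0.98 each), Cnn1 and the tropomyosin Tpm2 for both Krt14 and Krt17 (0.98 each), and Lgals7, a galectin of stratified epithelium, and the Wnt ligand Wnt10a for Krt15 (0.94 and 0.92). Cnn1 and Cxcl14 were also among the markers that named the classes. For luminal keratins they were Bspry and the claudin Cldn7 for Krt8 (0.97 each), Cldn3 and Cldn7 for Krt18 (0.97 each), and the claudin Cldn4 and Gmfg for Krt19 (0.97 each). Those for Krt7 were Mboat1 and Gpsm3 (0.98 each) and those for Krt6a were Obfc1 and Nipal1 (0.89 each).

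Basal keratins were not even within the basal-like class. In puberty the cluster led by the myoepithelial genes Postn, Cnn1 and Tagln had 7715 CPM of Krt14 and the cluster led by Serpinb11, A230065H16Rik and Serpinf1 had 1088 CPM. In estrus the corresponding clusters had 9528 and 2086 CPM, and in diestrus the Postn-led cluster had 5131 CPM and a cluster led by Serpinf1 had 2053 CPM. Krt17 had its highest and lowest levels in the same clusters, from 1141 to 5856 CPM in puberty, 1523 to 6703 CPM in estrus and 1397 to 4948 CPM in diestrus. The low cluster was deeper and held more cycling cells in puberty (median 5588 against 2385 counts per cell, 28.3% against 0.876% cycling), in estrus (7493.5 against 3257, 34.7% against 0) and in diestrus (4689 against 3434, 8% against 1.63%). The deepest and most cycling basal-like cluster of diestrus, led by Ube2c and Ccnb1 (8435.5 counts, 85.5% cycling), was not the lowest in Krt14 or Krt17. The part of depth and cell cycle in these levels was not tested.

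Krt15 did not follow this order in the adult libraries. In estrus its highest basal-like level, 521 CPM, was in the Serpinb11-led cluster where Krt14 was lowest, and its lowest, 108 CPM, was in the cluster led by Chil1 and Ccl2. In diestrus it ran from 125 CPM in the cluster led by Ctgf to 1879 CPM in the cluster led by the mitotic genes Ube2c and Ccnb1, in which 85.5% of cells were cycling. In puberty it was highest, at 1060 CPM, in the Postn-led cluster, as Krt14 was.

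Krt8 was found in most basal-like cells, and the other luminal keratins in fewer. A count of Krt8 was present in 67.2%, 75.7% and 67.5% of basal-like cells, of Krt18 in 46.2%, 60.4% and 41.8%, of Krt19 in 29.7%, 22.4% and 30.9%, and of Krt7 in 4.66%, 5.12% and 4.49%. Thinned to 2000 counts per cell, the share with Krt8 was 54.4%, 67.6% and 52.1%. Droplets can also take up free RNA or hold more than 1 cell, and their part in these counts was not tested. Values in stromal cells, of other luminal markers and of the keratins relative to each other are given beside them.

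The first comparison was with cells that should lack keratins. In estrus a cluster of 52 cells carried the stromal markers Col1a1, Col3a1 and Lum, with a median depth of 2408.5 counts against 2550.5 in basal-like cells. It also had 11 of the 12 basal markers in at least 10% of its cells. Krt8 was present in 11.5% of those cells against 75.7% of basal-like cells, and at 532 against 695 CPM. Krt18 was in 17.3% of them but at 1255 CPM, above the 557 CPM of basal-like cells, so its share and its level gave opposite orders and no order is read for it.

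The second was with other genes of luminal cells. Expressed as a percent of the level in ML-like cells, Krt8 in basal-like cells was at 10.96%, 14.0% and 13.3%. The luminal markers other than keratins with at least 50 CPM in their own class, 20 in puberty and 21 in each adult library, had medians of 1.52%, 0.793% and 0.988% in basal-like cells, and Krt8 was above 19 of 20, 21 of 21 and 21 of 21 of them. The marker above it in puberty was Ptn, a secreted growth factor, at 13.0%. Krt18 was at 3.50%, 5.51% and 3.36%, Krt19 at 2.34%, 2.04% and 3.63% and Krt7 at 1.97%, 1.71% and 1.72%. Krt18 was above 17, 20 and 19 of the markers, Krt19 above 15, 20 and 20, and Krt7 above 15, 18 and 17. A place above most markers was thus common to the luminal keratins, and Krt8 had the highest percent of them in each library.

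The third was the ratio of Krt8 to Krt18 counts. There were 1.55, 1.25 and 1.83 counts of Krt8 for each count of Krt18 in basal-like cells. The ratio was 0.478, 0.493 and 0.622 in LP-like cells, 0.494, 0.490 and 0.463 in ML-like cells and 0.424 (95% counting interval 0.325 to 0.550) in the stromal cluster of estrus. The stromal ratio rests largely on 1 cell for each gene, which its counting interval does not cover. The lowest interval in basal-like cells was 1.18 to 1.32, in estrus, so the basal-like ratio lay above the luminal and the stromal ratios in every library in which they were measured. The luminal classes also differed from each other in diestrus. When the 259, 109 and 130 basal-like cells with 3 or more of the 24 luminal markers were left out, Krt8 was at 578, 672 and 397 CPM and in 64.5%, 74.9% and 65.6% of the remaining cells, close to the values in all basal-like cells, while Krt18 was at 291, 515 and 172 CPM.

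**Figure D2:**
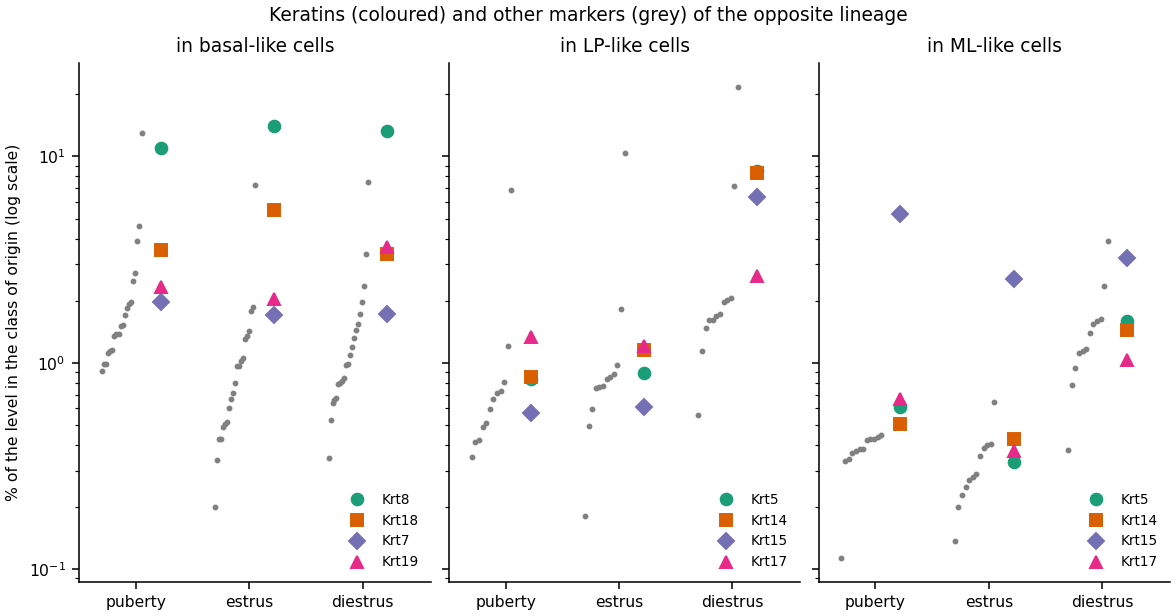
Keratins (coloured) and other marker genes (grey) of the opposite lineage in basal-like, LP-like and ML-like cells, as a percent of their level in the class of origin on a log scale, by library. Krt8 is at 10.96% to 14.0% in basal-like cells, above nearly all grey points, Krt15 leads in ML-like cells in puberty and estrus, and all 4 basal keratins are higher in LP-like cells of diestrus than of the other libraries.

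In the other direction, basal keratins in luminal cells were at 1.59% of their basal-like level or less, except in LP-like cells of diestrus and for Krt15 in ML-like cells. In LP-like cells Krt14 was at 0.852%, 1.15% and 8.35% of its basal-like level, where the 12 basal markers had medians of 0.631%, 0.801% and 1.70%. In ML-like cells Krt14 was at 0.505%, 0.428% and 1.45%, against medians of 0.381%, 0.284% and 1.28%. The marker with the highest value in LP-like cells of all 3 libraries was Oxtr, the oxytocin receptor of myoepithelium, at 6.89%, 10.4% and 21.8%. Krt15 in ML-like cells was at 5.27%, 2.53% and 3.22%, above 12 of 12, 12 of 12 and 11 of 12 basal markers.

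LP-like cells of diestrus held more of the basal keratins than LP-like cells of the other libraries. Krt14 was present in 15.2% of them, Krt17 in 9.71%, Krt15 in 4.60% and Krt5 in 4.43%, where the highest share in LP-like cells of the other libraries was 6.20% (Krt14 in estrus). Most counts were in few cells: 31 cells with 3 or more counts of Krt14 held 92.4% of its counts. Of 587 cells, 33 had 3 or more counts of Krt5 and Krt14 together, of which 19 had 3 or more basal markers and 14 had fewer, and their median depth was 5384 against 4075 counts in the class. The corresponding numbers were 19 of 1796 cells in puberty and 5 of 484 in estrus, with 14 and 5 of them carrying 3 or more basal markers. Of the 33 cells of diestrus 26 also had 3 or more counts of Krt8 and Krt18 together, as did 18 of the 19 and 5 of the 5. In 6 LP-like cells of diestrus with at least 10 counts of Krt5, Krt14, Krt8 and Krt18, 95% or more came from Krt5 and Krt14. The basal keratin counts of this class thus came in part from cells with few luminal keratin counts. Without the 23 diestrus cells that had 3 or more basal markers, Krt14 fell from 307 to 92.7 CPM, Krt5 from 41.9 to 11.1, Krt15 from 73.0 to 12.6 and Krt17 from 89.8 to 17.7 CPM. Krt5 per Krt14 count was 0.137 in these LP-like cells and 0.135 in basal-like cells, while Krt17 per Krt14 count was 0.293 against 0.934.

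Cells with both kinds of keratin were counted with at least 1 count of Krt5 or Krt14 and at least 1 of Krt8 or Krt18. Of all epithelial cells, 1082 of 5428 in puberty (19.9%, 95% Wilson interval 18.9% to 21.02%), 1247 of 2677 in estrus (46.6%, 44.7% to 48.5%) and 997 of 2439 in diestrus (40.9%, 38.9% to 42.8%) met this rule. Most were basal-like, in which the shares were 72.5%, 87.6% and 76.8%, and libraries with a larger share of basal-like cells had a larger share of such cells overall. In LP-like cells the shares were 4.96%, 7.02% and 15.5% and in ML-like cells 3.67%, 7.66% and 10.8%. The same rule was met by 6 of the 52 stromal cells of estrus (11.5%, 5.40% to 23.0%), and the luminal shares of estrus lay within that interval. With at least 3 counts of each pair, 3 of the 52 did (5.77%, 1.98% to 15.6%). The luminal shares of estrus were then 1.03% in LP-like cells (0.442% to 2.40%) and 0.264% in ML-like cells (0.0725% to 0.958%). Basal markers were also found in the stromal cluster, so its share is not a level of free RNA alone. Intervals cover counting error only.

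Shares were lower at equal depth, and the basal-like class stayed highest. Thinning left out the cells under 2000 counts, which were 269, 351 and 197 basal-like, 175, 82 and 69 LP-like and 151, 68 and 67 ML-like cells. Of the remaining cells, 56.8%, 80.9% and 61.3% of the basal-like ones had both kinds of keratin, against 3.02%, 3.48% and 11.2% of LP-like and 1.53%, 4.06% and 5.97% of ML-like cells. With at least 3 counts of each pair in cells as deposited, 35.3%, 53.3% and 36.0% of basal-like cells did, against 1.002%, 1.03% and 4.43% of LP-like and 0.642%, 0.264% and 1.46% of ML-like cells. In basal-like cells estrus had the highest share by all 3 counts, with intervals apart from those of puberty and diestrus. It was also the library with the highest Krt8 and Krt18 level in basal-like cells.

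**Figure D3:**
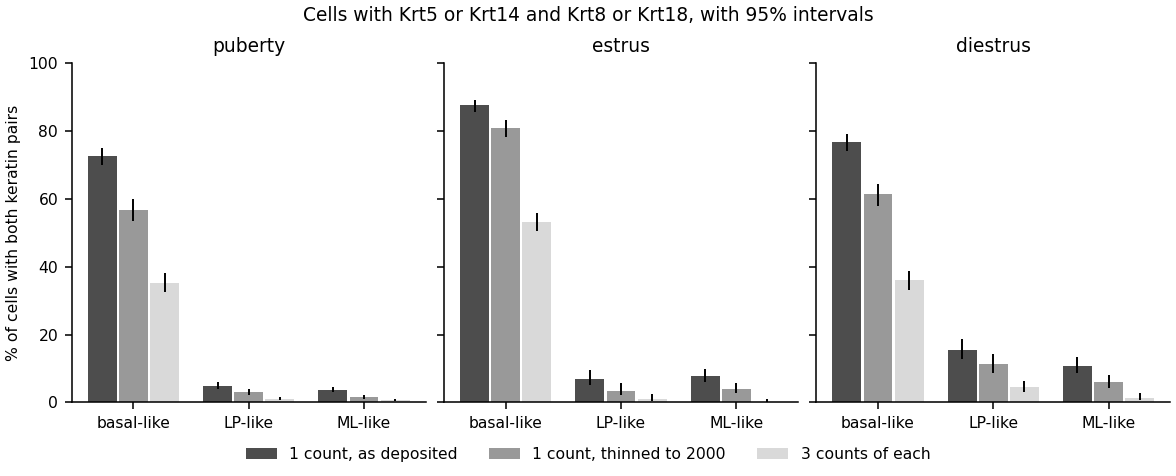
Percent of cells with Krt5 or Krt14 and Krt8 or Krt18 in each class and library, as deposited, thinned to 2000 counts and with at least 3 counts of each pair, with 95% Wilson intervals. Basal-like bars reach 72.5% to 87.6% as deposited and 35.3% to 53.3% at 3 counts of each, and luminal bars stay at or below 15.5%.

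Cells in which neither pair held more than 80% of the counts, called balanced here, were rarer. Of cells with at least 10 counts of Krt5, Krt14, Krt8 and Krt18 together, 239 of 5013 in puberty (4.77%, 4.21% to 5.39%), 273 of 2524 in estrus (10.8%, 9.66% to 12.1%) and 165 of 2096 in diestrus (7.87%, 6.79% to 9.10%) had between 20% and 80% of these counts from Krt5 and Krt14. The basal-like class held 197, 259 and 147 of them, or 82.4%, 94.9% and 89.1%. Of these, 55, 100 and 45 had from 75% to under 80% of the counts from Krt5 and Krt14, more than in any other bin of the range. The bins next to equal amounts of both pairs held fewer, with 8, 5 and 2 cells from 45% to under 50% and 14, 15 and 8 from 50% to under 55%. Within that class balanced cells were 23.7%, 22.4% and 17.9% of eligible cells, and 157 of 197, 237 of 259 and 114 of 147 had counts of fewer than 3 of the 24 luminal markers. The other 40, 22 and 33 had 3 or more, as did 259 of 1160, 109 of 1290 and 130 of 1068 cells of the whole class. In puberty and estrus these shares were near each other, and in diestrus balanced cells had 3 or more markers more often. The whole class includes cells with under 10 counts of the 4 keratins, and its median depth was 2929.5, 2550.5 and 3410.5 counts. The part of depth in these shares was not tested. The median depth of balanced basal-like cells was 3039, 2718 and 4026 counts, against 2685.5, 2573 and 3783 in the other eligible basal-like cells. The LP-like class held 8, 5 and 13 such cells and the ML-like class 2, 1 and 4, and all of these except 4 LP-like cells of diestrus carried 3 or more markers of both lineages. In puberty the unnamed cluster with basal and luminal markers held 31 more, or 13.0% of the balanced cells.

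**Figure D4:**
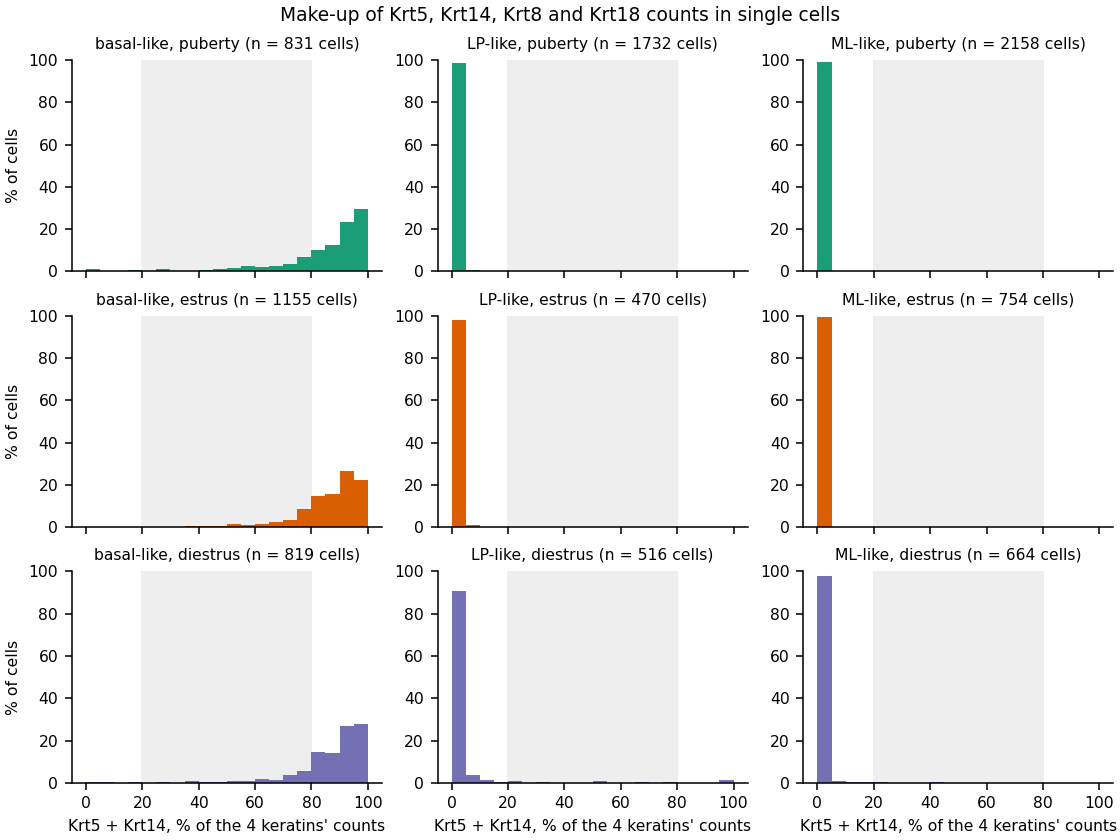
Percent of cells in bins of the share of Krt5 and Krt14 among counts of Krt5, Krt14, Krt8 and Krt18, for cells with at least 10 such counts, by class and library, with the range 20% to 80% shaded. Nearly all luminal cells lie in the lowest bin, while basal-like cells lie above 80% with a tail through the shaded range that holds 17.9% to 23.7% of them.

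Differences between stages within a class are ratios of 2 libraries, scaled with edgeR's TMM factors, with intervals for counting error only. The ratios include a pseudocount of 1 CPM and the intervals do not. At low levels a printed ratio is therefore smaller in size than the ratio its interval belongs to. Between diestrus and estrus, 7 members reached 50 CPM in basal-like cells, of which 1 was past 2-fold higher in diestrus (8% of all genes at that level) and 1 past 2-fold lower (3.95%). Krt15 was higher (log2 ratio 1.81, interval 1.73 to 1.90) and Krt18 lower (-1.17, -1.28 to -1.07). Krt14 (-0.90), Krt8 (-0.62), Krt5 (-0.55) and Krt17 (-0.36) were lower in diestrus by less than 2-fold, and Krt19 was higher (0.39). Krt15 and Krt14, both type I keratins of these cells, therefore differed in opposite directions between the adult libraries. The median of all genes at 50 CPM or more was 0.04.

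In LP-like cells, 2 of 7 members were past 2-fold higher in diestrus than in estrus (7.62% of all genes) and 0 past 2-fold lower (4.97%). These were Krt14 (1.81, 1.58 to 2.08) and Krt15 (4.52, 3.68 to 6.94, from 209 against 4 counts), whose counts lay largely in the few cells described above. Without cells with 3 or more basal markers the log2 ratios were 2.54 for Krt14 and 2.10 for Krt15, and only Krt14 then met the limit of 50 CPM. With cells assigned 1 by 1 from marker scores they were 0.06 and -0.70. The luminal keratins Krt18 (-0.89), Krt8 (-0.55) and Krt19 (-0.52) were lower in diestrus by less than 2-fold. In ML-like cells 0 of 5 members were past 2-fold higher (6.21% of all genes) or lower (1.61%), and Krt8 (-0.45), Krt18 (-0.37), Krt19 (-0.35) and Krt7 (-0.31) were lower in diestrus.

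Between puberty and estrus, 1 of 7 members in basal-like cells was past 2-fold higher in puberty (8.17% of all genes), Krt15 (1.23, 1.14 to 1.32), and 0 were past 2-fold lower (4.85%). Krt5 was lower in puberty (-0.84). In LP-like cells 0 of 6 were past 2-fold higher (7.27%) or lower (2.09%). In ML-like cells 1 of 5 was past 2-fold higher (8.3%) and 0 lower (1.47%): Krt6a, at 2.77 (2.46 to 3.30). Krt8, Krt18 and Krt19 were each higher in puberty in both luminal classes, by 0.34 to 0.46, where the median of all genes was 0.14 in LP-like and 0.12 in ML-like cells. These sizes depended on the scaling. With CPM by total counts, without TMM factors, the 3 keratins were higher in puberty by only 0.13 to 0.18 in LP-like cells. In ML-like cells they were then higher by 0.04 to 0.07, which leaves nearly no difference.

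Between puberty and diestrus, 0 of 7 members in basal-like cells were past 2-fold higher (3.86%) or lower (2.33%). In LP-like cells 1 of 7 was past 2-fold higher (6.84%), Krt18 at 1.34 (1.31 to 1.37), with Krt19 (0.98) and Krt8 (0.96) just under that limit, and 2 were past 2-fold lower (2.13%), Krt14 (-2.64) and Krt15 (-3.56). In ML-like cells Krt6a was past 2-fold higher (3.66, 3.25 to 4.54; 4.87% of all genes) and Krt14 past 2-fold lower (-1.07, -1.38 to -0.82; 1.86%), the latter from 257 and 183 counts. In diestrus 10 ML-like cells held 68.9% of these Krt14 counts, and without the cells that Scrublet marked as doublets the log2 ratio turned to 0.077. Krt8, Krt18 and Krt19 were thus lowest in diestrus in both luminal classes, and Krt6a in ML-like cells was highest in puberty.

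**Figure D5:**
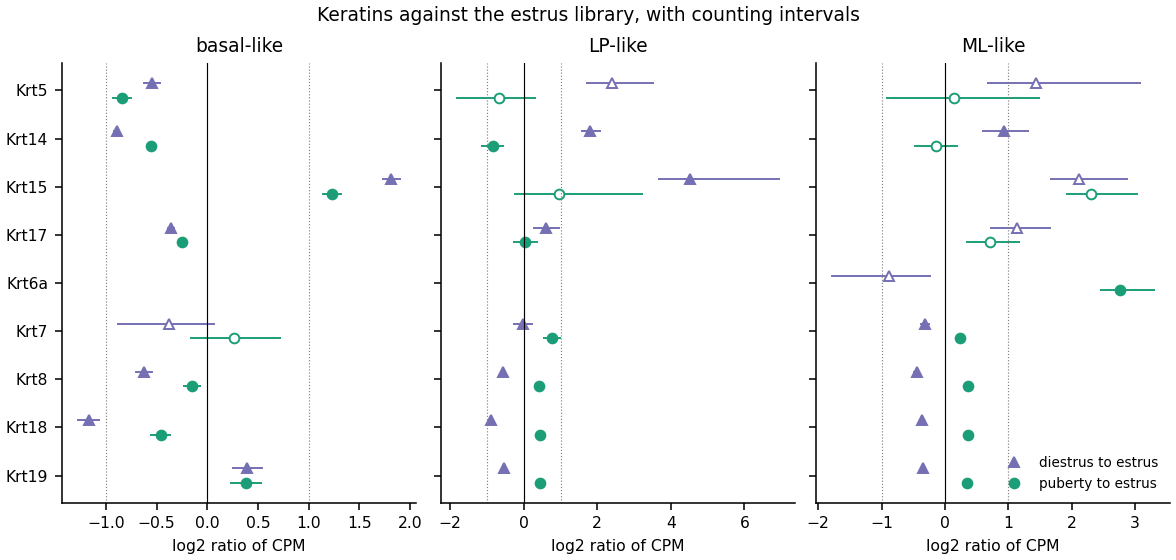
Log2 ratio of normalised CPM for each keratin in diestrus and in puberty against estrus, by class, with 95% counting intervals and dotted lines at 2-fold. Filled symbols had at least 50 CPM in a compared library and open symbols less, and pairs with under 4 counts in either library are left out; Krt15 is to the right in basal-like cells for both stages, and Krt6a for puberty in ML-like cells.

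Genes that work with keratin filaments were taken from a list of desmosome, hemidesmosome, filament and regulator genes. Of 52 listed genes, 40 were expressed enough to test, and 22 were higher in basal-like than in luminal cells, 7 were lower and 11 were not called, with a median log2 fold change of 0.74 against 0.02 for all genes, of which 27.8% were higher and 24.9% lower. Of 9 hemidesmosome and anchoring genes, which tie keratins to the basement membrane, 8 were higher in basal-like cells and 0 lower. Among desmosome genes, which tie keratins to neighbouring cells, 4 of 11 were higher and 3 lower, near the shares over all genes. Of the 6 other keratins tested, 3 were higher and 2 lower, and of 6 other intermediate filament genes 4 were higher and 1 lower. Of 8 keratin regulators and binding proteins 3 were higher and 1 lower.

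The partners with the largest log2 fold changes toward basal-like cells were Col17a1, the hemidesmosomal collagen (6.47, SE 0.43, edgeR adjusted p = 6.92e-07), Trp63, the transcription factor that activates Krt5 and Krt14 in stratified epithelium (6.29, SE 0.37, edgeR adjusted p = 2.95e-07; also a marker used for naming clusters), and the intermediate filament gene Synm (6.07, SE 0.27, edgeR adjusted p = 4.79e-08). Those toward luminal cells were the desmosomal plakophilin Pkp2 (-5.48, SE 0.37, edgeR adjusted p = 9.05e-07), the envoplakin gene Evpl (-5.34, SE 0.68, edgeR adjusted p = 7.87e-05; its mean of 0.0689 CPM in basal-like cells makes the size depend on the prior count of the fit) and Krt4, a type II keratin of stratified mucosa (-3.16, SE 0.60, edgeR adjusted p = 0.00123). Other keratins called higher in basal-like cells were Krt23 (5.67, mean 189 CPM), Krt16 (2.32, mean 8.74 CPM) and Krt10 (0.94, mean 29.4 CPM), and Krt1 (-2.48) was lower at a mean of 0.928 CPM in basal-like cells but turned to 1.62 with cells assigned 1 by 1 from marker scores.

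Between the luminal classes, 14 of the 40 partners were higher in LP-like and 9 in ML-like cells, where 20.1% of all genes were higher and 20.2% lower in LP-like cells. The 14 became 11 without the puberty, the estrus or the diestrus library. Desmosome genes split into 3 and 3, hemidesmosome genes into 2 and 4, other intermediate filament genes into 4 and 0, other keratins into 2 and 1, and regulators into 3 and 1. The intermediate filament gene Nes (4.41, SE 0.70, edgeR adjusted p = 6.00e-04, with a mean of only 0.117 CPM in ML-like cells), the laminin chain Lamb3 (3.004, SE 0.25, edgeR adjusted p = 6.06e-06) and Krt23 (2.82, SE 0.35, edgeR adjusted p = 1.06e-04) had the largest differences toward LP-like cells. Krt4 (-4.05, SE 0.49, edgeR adjusted p = 9.85e-05), the desmosomal cadherin Dsc2 (-3.73, SE 0.53, edgeR adjusted p = 2.78e-04) and the plakin Dst (-2.02, SE 0.27, edgeR adjusted p = 1.84e-04) had the largest toward ML-like cells. Krt10 was higher in LP-like cells (1.34, SE 0.29, edgeR adjusted p = 0.00441). Krt4 followed Krt7 in being higher in ML-like cells, at a mean of 19.4 CPM there against 1.21 CPM in LP-like cells, and this call was lost without the puberty library (-2.70, edgeR adjusted p = 0.0715).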

How the data were processed

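Per the labels, the authors captured cells with the 10x Single Cell 3′ protocol. The deposited molecule counts were not normalized, and the submitters' processing notes name Cell Ranger 2.0 and mm10. The 2 puberty tables shared 5387 barcodes (99.2% of the first) whose totals correlated at 0.997, as for 1 set of cells sequenced again, so only the first was used and the second was an alternative. Deposited barcodes were used without further filters, and classes came from Leiden clusters of each library (scanpy 1.11.5; 2000 variable genes without keratins, 30 components, 15 neighbours, resolution 1). Counts summed by class and library were tested with edgeR 4.0.16 (TMM, filterByExpr, quasi-likelihood, library block, because the classes of a library come from 1 preparation of cells), and DESeq2 1.42.0 was an alternative. Stage ratios used a pseudocount of 1 CPM, and their intervals used none. The fit was also run on simulated sums with known changes in basal-like cells and no library effect. That run cannot check the library block or the contrast of LP-like with ML-like cells, and no result here rests on it. Scrublet marked 0.0553% of puberty cells, too few for its calls to be relied on there, and doublets were kept. Named partner genes were the 3 largest calls in each direction and any keratin called. The members, gene lists and tests were chosen with earlier results of these data known. The 3 libraries are the replicates of the lineage contrast, and p-values measure their spread only.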

Additional observations from a re-analysis of the deposited data

Results flagged for a closer look

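Krt14 differed in opposite directions between classes when diestrus was set against estrus. Its log2 ratio was -0.90 in basal-like cells, 1.81 in LP-like cells and 0.93 in ML-like cells, and with 1 library per stage the difference between classes was not tested. The ratio in basal-like cells ranged from -0.97 to -0.87 over the alternatives and that in LP-like cells from 0.06 to 3.70, where the value of 0.06, with cells assigned 1 by 1 from marker scores, leaves nearly no difference. That in ML-like cells ranged from -0.40 to 0.96.

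Cells outside the classes also held both kinds of keratin. In puberty a cluster of 64 cells with markers of basal and luminal cells had Krt5 or Krt14 together with Krt8 or Krt18 in 92.2% of cells, at a median depth of 6506 counts against 4103 in the library. Its Krt8 to Krt18 ratio was 0.436, against 0.478 and 0.494 in the luminal classes and 1.55 in basal-like cells of that library. In estrus the stromal cluster had both in 11.5% of cells.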

How the results depend on the processing

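With 1 library per stage, differences between stages carry counting error only, and the lineage contrasts rest on 3 libraries in which class, depth and free RNA vary together. Removing 1 library left the number of keratins higher in basal-like cells at 4, the number lower at 4 to 5, the number higher in LP-like cells at 2 to 3 and the number lower at 2 to 4. For partner genes these were 20 to 23, 5 to 7, 11 to 11 and 8 to 9. The classes of a library share its preparation, so the fit held the library as a replicate block. Without that block 4 partners were lower in basal-like cells and 9 higher in LP-like cells, and Krt6a (edgeR adjusted p = 0.229) lost its basal against luminal call. Of the values of single members between classes, 217 kept direction and call, 13 lost the call, 3 gained it and 1 turned: Krt15 between LP-like and ML-like cells, whose log2 fold change ran from -2.71 without the diestrus library to 0.55 without the puberty library. Depth limits Krt6a, Krt5 in luminal cells and every share of cells with a count.

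With cells assigned 1 by 1 from marker scores, 0 keratins were higher in LP-like cells, Krt1 turned between basal-like and luminal cells (1.62), and Krt15 turned between diestrus and estrus in LP-like cells (-0.70). The numbers of keratins past 2-fold under these scores became 1 (higher in puberty than diestrus, basal-like), 0 higher and 1 lower (diestrus against estrus, LP-like), 2 lower (puberty against estrus, LP-like), 1 lower (puberty against diestrus, LP-like), 1 lower (puberty against estrus, ML-like) and 0 lower (puberty against diestrus, ML-like). With no limit of 50 CPM the numbers higher became 2, 2 and 1 in basal-like cells (diestrus against estrus, puberty against estrus, puberty against diestrus), 4 and 1 in LP-like cells (the first and second of these) and 3 and 2 in ML-like cells, and 2 were lower in puberty than in diestrus in ML-like cells. The Krt14 difference between puberty and diestrus in ML-like cells turned without Scrublet doublets (0.077), and 0 keratins were then past 2-fold lower there. That number was also 0 with the second puberty table, a pseudocount of 10 CPM, the highest 5% of Scrublet scores left out or cells with 3 or more markers of the other lineage left out. The last setting also gave 1 higher in diestrus than estrus and 1 lower in puberty than diestrus in LP-like cells. In LP-like cells 3 were higher in puberty than in diestrus with the second table, 2 with both tables summed and 0 with CPM by total counts, which also gave 1 lower in puberty than estrus, and 1 was higher in puberty than estrus without the highest Scrublet scores. With at least 1000 genes per cell and under 10% mitochondrial counts, 0 were higher in puberty than estrus in basal-like cells.

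The share of epithelial cells with both keratin pairs depended on the rule. With 3 counts of each pair it was 9.27%, 26.5% and 17.4% in puberty, estrus and diestrus, with all 4 basal and 4 luminal keratins 27.5%, 50.2% and 49.8%, with thinning 13.3%, 37.6% and 30.2%, and without cells with 3 or more markers of the other lineage 15.8%, 44.3% and 37.7%. In puberty it was 18.4% with the limits on genes and mitochondrial counts, 18.5% with the second table and 23.4% with both summed. The share of balanced cells was 9.14%, 25.2% and 20.1% between 10% and 90%, and 2.15%, 7.36% and 4.71% with at least 30 counts. In puberty it was 2.99% with thinning, 4.17% without the highest Scrublet scores and 3.31% without cells with markers of the other lineage, which left 6.10% in diestrus. Leaving out the highest Scrublet scores and cells with markers of the other lineage were alternatives chosen after seeing the data. The causes of these moves were not tested.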
